A study of Mus musculus with 5 samples.

Results

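SOX11 and SOX4 binding was examined at 10 genes of the NRF2 antioxidant pathway: *Nfe2l2*, *Keap1*, *Sqstm1*, *Gclc*, *Gclm*, *Slc7a11*, *Txnrd1*, *Srxn1*, *Nqo1* and *Hmox1*. A peak was assigned to these genes when its centre lay in the gene body or within 10 kb of it, or when the closest transcription start of any protein-coding gene in the GENCODE M1 annotation of mm9 belonged to 1 of them. By this rule 28 of the 21270 SOX11-FLAG peaks and 3 of the 2669 SOX4-FLAG peaks were at the 10 genes. Of the 28 SOX11-FLAG peaks, 20 lay in a gene window and 8 were assigned only by the closest start.

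The peaks came from ChIP-seq with an anti-FLAG antibody in primary keratinocytes of newborn dcKO mice (Krt14-Cre;Sox11fl/fl;Sox4fl/fl, mixed 129SvEx:C57BL/6 background), in which Cre driven by the keratin 14 promoter had deleted both genes. The cells were transduced with a pINDUCER21 lentivirus carrying *Sox11* or *Sox4* with 3 FLAG epitopes and were given doxycycline for 24 h. Per the methods of the study, the floxed line had been crossed to Krt14-Cre mice of the FVB/N strain, which the strain label leaves out, and it carried Sox12-/- before that cross, an allele that the genotype label does not list. There were 2 replicates of SOX11-FLAG, 2 of SOX4-FLAG and 1 control of the same genotype, which carries Input in its title and IgG in its antibody field and has no list here. The binding is therefore that of an induced, tagged factor in cells without the endogenous ones. Both replicates of a factor were merged by the authors into 1 list without heights or scores, so no spread between replicates can be given and depth is unknown. The lists hold no expression values, so neither the keratinocyte label nor the level of any NRF2 target could be checked. The order of the lines is given as place in the list; its meaning is not stated in the sources used here.

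NRF2, encoded by *Nfe2l2*, is a transcription factor that pairs with small MAF proteins on the antioxidant response element (ARE) and switches on genes for glutathione synthesis, thioredoxin recycling, quinone detoxification and haem breakdown. In unstressed cells KEAP1 holds NRF2 and presents it to a CUL3 ubiquitin ligase for destruction; oxidants and electrophiles modify cysteines of KEAP1 and let NRF2 accumulate. In the epidermis the pathway protects keratinocytes against ultraviolet light and chemical stress, and mice without *Keap1* develop hyperkeratosis of the upper digestive tract.

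Sequences of 9 of the 28 SOX11-FLAG peaks are printed here because they either overlapped a SOX4-FLAG peak or contained the ARE core. Number 17864 of *Gclc* and number 20034 of *Slc7a11* also contained the ARE core, but they stood later in the list and are not printed. The first 3 sequences are the sites with peaks of both factors. Capitals mark the SOX core (CATTGT or CTTTGT), the AP-1 core (TGAGTCA or TGACTCA) and the ARE core (TGACNNNGC), each searched on both strands, and all whole peaks are the forward strand of mm9. An ARE core of the form TGACTCAGC contains an AP-1 core, and one of the form TGACAAAGC contains a SOX core.
Nfe2l2 peak 19, chr2:75521028-75521285: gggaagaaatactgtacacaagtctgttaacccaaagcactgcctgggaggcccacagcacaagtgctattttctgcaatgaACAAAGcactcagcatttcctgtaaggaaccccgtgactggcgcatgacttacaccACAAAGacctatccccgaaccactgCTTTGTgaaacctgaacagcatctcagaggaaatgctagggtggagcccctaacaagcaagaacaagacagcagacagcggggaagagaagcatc
Hmox1 peak 483, chr8:77613454-77613711: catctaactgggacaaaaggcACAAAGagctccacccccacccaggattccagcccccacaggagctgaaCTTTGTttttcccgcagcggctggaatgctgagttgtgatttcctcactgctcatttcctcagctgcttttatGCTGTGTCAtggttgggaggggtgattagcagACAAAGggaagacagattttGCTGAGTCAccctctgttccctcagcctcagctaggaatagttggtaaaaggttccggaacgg
Txnrd1 peak 923, chr10:82306870-82307127: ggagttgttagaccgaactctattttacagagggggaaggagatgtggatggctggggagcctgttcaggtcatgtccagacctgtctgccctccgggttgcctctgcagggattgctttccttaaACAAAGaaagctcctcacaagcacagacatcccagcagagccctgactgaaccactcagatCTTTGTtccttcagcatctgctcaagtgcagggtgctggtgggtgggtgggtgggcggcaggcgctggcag
The next 3 had the ARE core and no SOX4-FLAG peak.
Gclc peak 5821, chr9:77598539-77598796: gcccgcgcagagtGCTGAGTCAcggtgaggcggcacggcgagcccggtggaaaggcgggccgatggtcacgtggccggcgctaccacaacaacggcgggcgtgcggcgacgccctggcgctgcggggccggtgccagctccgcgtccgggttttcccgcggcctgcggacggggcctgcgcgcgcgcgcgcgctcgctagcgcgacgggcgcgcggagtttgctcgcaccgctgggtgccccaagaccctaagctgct
Nfe2l2 peak 6351, chr2:75605752-75606009: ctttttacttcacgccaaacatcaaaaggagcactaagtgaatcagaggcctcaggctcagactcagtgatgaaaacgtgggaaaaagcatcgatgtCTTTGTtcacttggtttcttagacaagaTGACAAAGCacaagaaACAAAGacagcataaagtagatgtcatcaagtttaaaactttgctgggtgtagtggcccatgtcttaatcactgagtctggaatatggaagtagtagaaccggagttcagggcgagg
Slc7a11 peak 12487, chr3:50425113-50425370: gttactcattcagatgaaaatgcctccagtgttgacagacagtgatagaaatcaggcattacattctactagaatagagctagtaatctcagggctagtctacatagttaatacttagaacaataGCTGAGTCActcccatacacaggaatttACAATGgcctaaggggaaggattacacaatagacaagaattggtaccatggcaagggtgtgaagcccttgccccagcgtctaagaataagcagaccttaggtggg
In 2 further peaks, which overlapped exons, only the ARE core and 10 bases to each side are given, on the reverse strand for *Txnrd1* and on the forward strand for *Keap1*.
Txnrd1 site in peak 5919, chr10:82321849-82321877: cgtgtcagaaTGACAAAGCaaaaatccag
Keap1 site in peak 10589, chr9:21043274-21043302: cgggtcacggTGACTAAGCacagcgcgcc
A last peak, upstream of *Hmox1*, was chosen after its values were seen, because 3 ARE cores lay in it.
Hmox1 peak 13350, chr8:77607820-77608077: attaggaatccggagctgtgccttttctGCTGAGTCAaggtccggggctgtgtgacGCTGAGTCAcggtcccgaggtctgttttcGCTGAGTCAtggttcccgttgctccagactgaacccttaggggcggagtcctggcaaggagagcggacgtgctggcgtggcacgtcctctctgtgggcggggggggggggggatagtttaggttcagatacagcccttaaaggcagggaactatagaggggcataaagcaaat

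SOX11-FLAG peaks were found in the window of 9 of the 10 genes, beside 50.7% of all 22380 protein-coding genes. SOX4-FLAG peaks were found in the window of 3 of the 10, *Nfe2l2*, *Hmox1* and *Txnrd1*, beside 10.2% of all protein-coding genes. All 3 SOX4-FLAG peaks overlapped a SOX11-FLAG peak by at least 1 bp, as did 94.5% of the whole SOX4-FLAG list. Seen from the other list, 3 of the 28 SOX11-FLAG peaks (10.7%, 95% Wilson interval 3.7 to 27.2) overlapped a SOX4-FLAG peak, which was close to the 11.9% of the whole SOX11-FLAG list. The intervals cover counting error over peaks, which are not replicates. The median gene of the 10 had 2 SOX11-FLAG peaks in its window and a length of 19.7 kb, whereas the median protein-coding gene had 1 and a length of 15.4 kb. Per 100 kb of window there were 4.12 SOX11-FLAG peaks at the 10 genes and 1.19 over the merged windows of all protein-coding genes. The genes differed widely among themselves, from 8 assigned peaks at *Gclc* to none at *Sqstm1*.

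**Figure D1:**
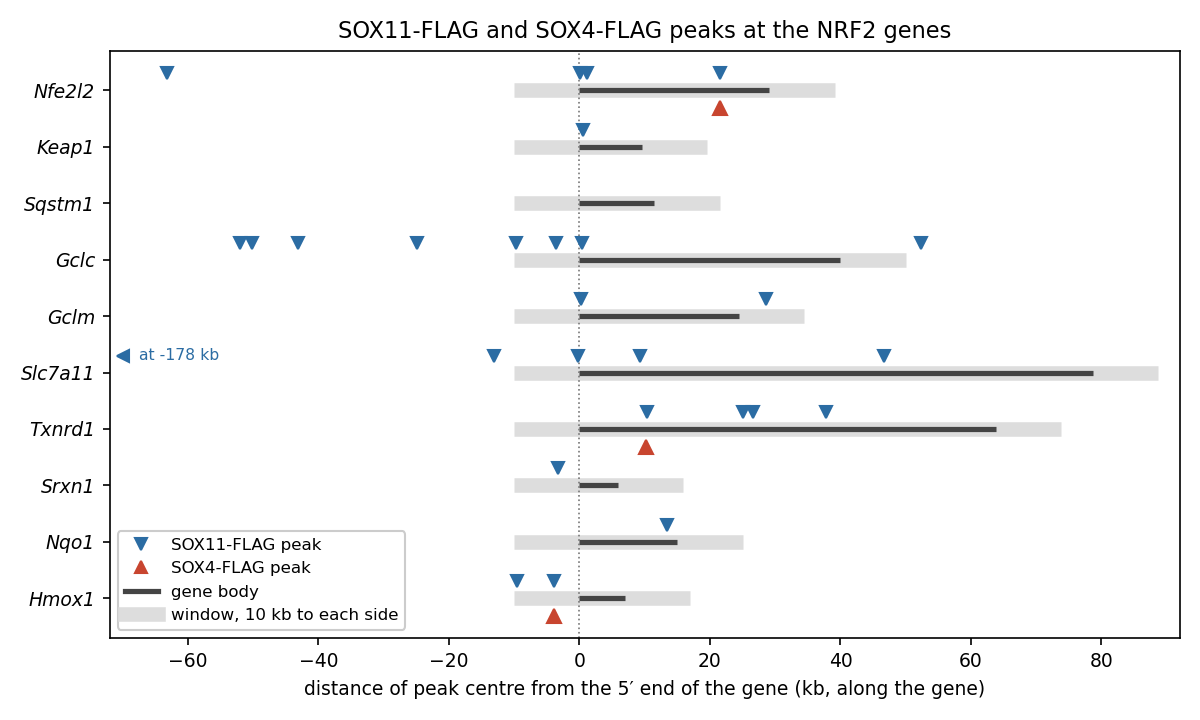
Each row is 1 gene and the horizontal axis gives the distance of a peak's centre from the 5′ end of that gene, in kb along the direction of transcription. Blue triangles are SOX11-FLAG peaks, red triangles are SOX4-FLAG peaks, dark lines are gene bodies and grey bars are the windows; 1 *Slc7a11* peak lies beyond the left edge and is marked by an arrow. The 3 red triangles stand at *Nfe2l2*, *Txnrd1* and *Hmox1*, each with a blue one, and the row of *Sqstm1* is empty.

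Among the regulators, *Nfe2l2* itself carried the earliest-listed site. Its gene body (chr2:75513570-75542698, reverse strand) held 3 SOX11-FLAG peaks. The peak at chr2:75521028-75521285, in intron 1 and 21.54 kb downstream of the 5′ end of the gene, was number 19 of the SOX11-FLAG list. A limit on reading this peak is that ChIP-qPCR in the study found no enrichment at a region of a gene spelled *Nf2l2* there. The gene is taken here to be *Nfe2l2*, and the SOX11 peak of the region was high. The study lists this region among a few exceptions, as most of its chosen targets with high peaks were enriched in the same assay. That assay used freshly isolated epidermal cells of SOX11-FLAG transgenic pups and harsher sonication, not the cultured keratinocytes of the lists. The position of the region is not given in the sources used here, so whether it was number 19 is not known. It shared 253 bp with the SOX4-FLAG peak at chr2:75520941-75521280, number 91 of its list, and the centres were 46 bp apart. Although the site lies inside *Nfe2l2*, the closest start was that of *Hnrnpa3*, which encodes an RNA-binding protein, at 20.61 kb. As printed in the first sequence, it contained 3 SOX cores, no AP-1 core and no ARE core. The SOX4-FLAG peak, which is wider, also held 1 ARE core that lay outside the SOX11-FLAG peak.

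The other *Nfe2l2* peaks stood later in the list and had no SOX4-FLAG peak. Number 1148, at chr2:75541350-75541607, lay in intron 1, 1.22 kb from the 5′ end, with 1 SOX core. Number 1836, at chr2:75542544-75542801, was centred 26 bp inside exon 1 and had none of the 3 cores. Number 6351 lay 63.2 kb upstream between genes and had 3 SOX cores and 1 ARE core, of which 1 SOX core falls within the ARE core, as its printed sequence shows. *Nfe2l2* thus had sites of all these kinds: 1 at its start, 2 in its first intron and 1 far upstream. With 3 SOX11-FLAG and 1 SOX4-FLAG peaks in its window, *Nfe2l2* shared its counts with 289 other protein-coding genes. Of those, the 3 whose earliest SOX11-FLAG peak stood closest to number 19 on a log10 scale were *Pdhx* (number 13), *Manbal* (number 29) and *Zfp786* (number 33).

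*Keap1*, the inhibitor of NRF2, had 1 SOX11-FLAG peak, at chr9:21043075-21043332, number 10589. It was centred in the non-coding exon 1 of a *Keap1* transcript, 573 bp from the 5′ end of the gene, had a GC content of 76.7% and contained 1 ARE core and no SOX core. The next SOX11-FLAG peak, 11.9 kb upstream and just outside the window, had its closest start at *S1pr5*, a sphingosine 1-phosphate receptor gene. *Sqstm1* encodes p62, an autophagy receptor that binds KEAP1, and it was the only 1 of the 10 genes without an assigned peak of either factor. The closest SOX11-FLAG peak, number 4948 at chr11:50036207-50036464, was 12.01 kb upstream in an intron of *Mgat4b*, a glycosyltransferase gene, and its closest start was also that of *Mgat4b*. The closest SOX4-FLAG peak to *Sqstm1* was 167.2 kb away. The regulators therefore ranged from 4 SOX11-FLAG peaks at *Nfe2l2* to 1 at *Keap1* and 0 at *Sqstm1*.

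Among the genes of glutathione synthesis, *Gclc*, the catalytic subunit of glutamate-cysteine ligase, had 8 SOX11-FLAG peaks and no SOX4-FLAG peak. All 8 had the start of *Gclc* as their closest, and 238 protein-coding genes (1.06%) had at least as many SOX11-FLAG peaks closest to their start. By the gene window the count of *Gclc* was 3, and 8.59% of all protein-coding genes had at least as many. The earliest of the 8, number 3043 at chr9:77551995-77552252, lay 50.2 kb upstream between genes and had 1 SOX core and 2 AP-1 cores. Only 3 of the 8 were in the window: number 4941 in intron 1, 451 bp from the start, number 5821 at 3.67 kb upstream and number 14351 at 9.69 kb upstream. Number 5821 was the peak with the ARE core TGACTCAGC printed above, in a stretch with a GC content of 76.0%. The remaining 5 lay between genes, 4 of them 24.9 to 52.0 kb upstream and 1 beyond the 3′ end, 52.4 kb from the start. The peaks of *Gclc* were thus mostly distal, and their places ran from 3043 to 17864. The closest SOX4-FLAG peak was 318.8 kb from the gene.

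*Gclm*, the modifier subunit of the same ligase, had 2 SOX11-FLAG peaks, both from the later part of the list. Number 13697, at chr3:121948574-121948831, lay in exon 1, 72 bp from a transcription start, and had 1 SOX core near its edge. Number 14486, at chr3:121976965-121977222, lay downstream of *Gclm* in the promoter of *Dnttip2*, 239 bp from the start of that gene, and had none of the 3 cores. Only the first of the 2 was therefore at the start of *Gclm*.

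*Slc7a11* encodes xCT, the exchanger that brings in cystine for glutathione synthesis, and had 5 SOX11-FLAG peaks. The earliest, number 7460 at chr3:50247581-50247838, lay in the promoter, 174 bp upstream of the start, with 1 SOX core 11 bp from its centre. Peaks in intron 3 (number 20034) and intron 6 (number 17246) stood near the end of the list. The other 2 were upstream between genes, 13.2 and 178 kb from the start. The farther of these, number 12487, had a SOX core, an AP-1 core and an ARE core of the form TGACTCAGC, as printed above. All 5 peaks of *Slc7a11* had a SOX core, and none overlapped a SOX4-FLAG peak. The closest SOX4-FLAG peak was 832.9 kb from the gene.

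Among the genes of the thioredoxin system, *Txnrd1*, the cytosolic thioredoxin reductase, had 4 SOX11-FLAG peaks, all in its gene body (chr10:82296696-82360469, forward strand). Number 923, at chr10:82306870-82307127, lay in intron 1, 10.3 kb from the 5′ end. It was fully covered by the SOX4-FLAG peak at chr10:82306797-82307136, number 1062 of its list, and the centres were 32 bp apart. This site had 2 SOX cores, 1 of them at the centre of the SOX11-FLAG peak, and no AP-1 or ARE core. Numbers 5919 and 4470 stood beside alternative starts of the gene: number 5919 lay 111 bp upstream of 1 start, in a promoter, and number 4470 lay in the non-coding exon 1 of another transcript, 180 bp from its start. In number 5919 the ARE core is TGACAAAGC, so the only SOX core of that peak lies within the ARE core. Number 18216 was intronic, with 1 SOX core near its edge. *Txnrd1* therefore had 1 intronic site with both factors, and 2 sites at internal starts and 1 intronic site with SOX11-FLAG alone.

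*Srxn1* encodes sulfiredoxin, which restores overoxidised peroxiredoxins. It had 1 SOX11-FLAG peak, number 2065 at chr2:151927886-151928143, between genes and 3.24 kb upstream of the start, with 1 SOX core 16 bp from the centre and 1 AP-1 core. Of the genes without a SOX4-FLAG peak, *Srxn1* had the earliest-listed SOX11-FLAG peak.

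*Nqo1*, a quinone reductase often used as a readout of NRF2 activity, had 1 SOX11-FLAG peak, number 15263 at chr8:109913581-109913838. It lay in intron 5, 13.4 kb from the start, and had none of the 3 cores. *Hmox1*, the inducible haem oxygenase, had 2 SOX11-FLAG peaks, both upstream of the gene (chr8:77617490-77624495, forward strand) and between genes. Mouse *Hmox1* is known for a proximal and a distal upstream enhancer that each hold several AREs. The peak at chr8:77613454-77613711, 3.91 kb upstream and number 483, was fully covered by the SOX4-FLAG peak at chr8:77613446-77613785, number 368 of its list, and the centres were 33 bp apart. It held 3 SOX cores, 1 AP-1 core and 2 ARE cores, of which 1 contains the AP-1 core, and a gap of 16 bp separated the AP-1 core from the closest SOX core. It was the only 1 of the 3 sites with both factors where the SOX11-FLAG peak had an ARE core. The second peak, chr8:77607820-77608077, 9.54 kb upstream and number 13350, held 3 ARE cores, each of the form TGACTCAGC, and no SOX core; no SOX4-FLAG peak overlapped it. The pair of *Hmox1* peaks therefore differed in list place, in SOX4-FLAG overlap and in SOX cores, while both had ARE cores.

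**Figure D2:**
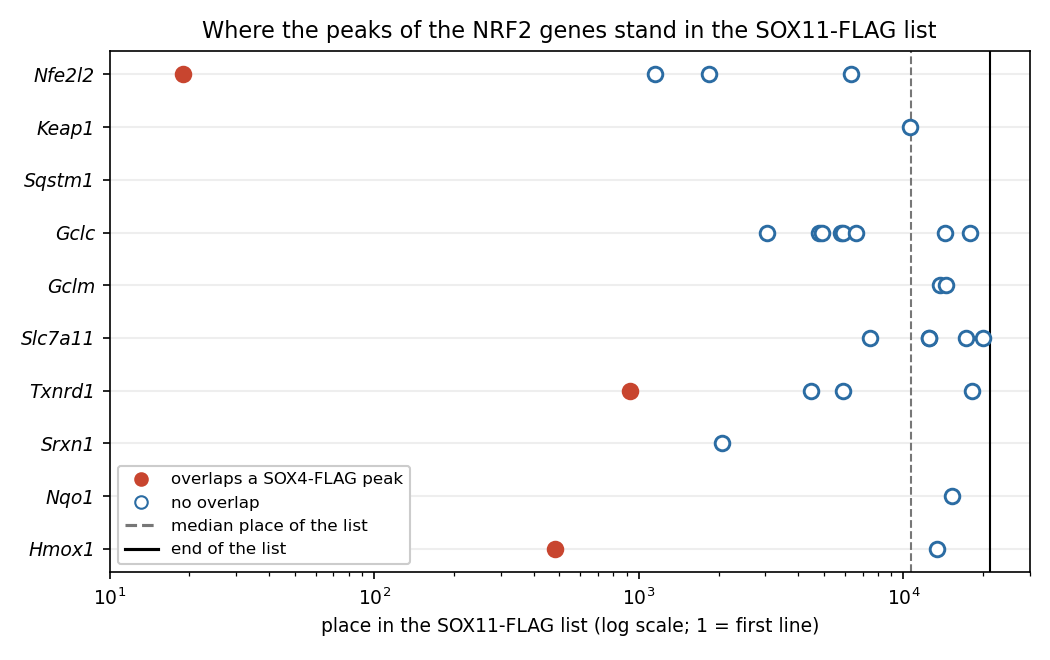
Each circle is 1 of the 28 SOX11-FLAG peaks, by gene, at its place in the SOX11-FLAG list on a log scale; filled red circles overlap a SOX4-FLAG peak and open blue circles do not. The dashed line is the median place of the whole list, 10635.5, and the solid line its end at 21270. The 3 filled circles, at 19, 483 and 923, are the earliest of the 28.

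Over the 28 peaks the median place in the list was 6473.5, against 10635.5 for the whole list, and 17 of the 28 stood in the first 50% of it. The 3 peaks that overlapped a SOX4-FLAG peak were the 3 earliest of the 28. In the whole list, too, SOX11-FLAG peaks with a SOX4-FLAG overlap stood early, with a median place of 1971.5, and 62.0% of the first 2127 SOX11-FLAG peaks overlapped a SOX4-FLAG peak. Of the 28, 6 were among these first 2127, and 3 of the 6 overlapped one. Those without were numbers 1148 and 1836 of *Nfe2l2* and number 2065 of *Srxn1*.

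By location, 5 of the 28 SOX11-FLAG peaks lay in a promoter (1 kb upstream to 100 bp downstream of a start), 17.9% (7.9 to 35.6) beside 23.3% of the whole list. They were at *Nfe2l2*, *Gclm*, *Slc7a11*, *Txnrd1* and, near *Gclm*, *Dnttip2*. With 1 kb to each side of a start the number was 8 of 28, beside 28.9% of the whole list under the same rule. Introns held 8 of the 28 (28.6%) beside 33.4% of the list, the space between genes held 13 (46.4%) beside 40.0%, and exons outside promoters held 2 (7.14%, 2.0 to 22.6), at *Keap1* and *Txnrd1*, beside 3.34%. The median GC content was 64.3% in the promoter peaks and 45.3% in the others, beside 64.7% and 49.6% over the whole list.

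The SOX core was present in 22 of the 28 SOX11-FLAG peaks (78.6%, 60.5 to 89.8), beside 58.5% of the whole list, nearly all of whose peaks have the same width of 258 bp, and 32.2% of stretches of equal width 2 kb downstream of each peak. The share depends on location. Outside promoters the SOX core was present in 19 of 23 peaks (82.6%, 62.9 to 93.0), beside 64.7% of such peaks in the whole list. In promoters it was present in 3 of 5, beside 38.1%. In the 22 peaks the SOX core closest to the centre lay at a median of 13.5 bp from it, beside 18.0 bp over the peaks of the whole list that had the core. It lay within 50 bp of the centre in 18 of the 28, beside 46.4% of the list. The 6 peaks without a SOX core were number 1836 of *Nfe2l2*, number 14486 near *Gclm*, number 5821 of *Gclc*, number 13350 of *Hmox1* and the single peaks of *Keap1* and *Nqo1*. The AP-1 core, bound by FOS and JUN proteins, was present in 8 (28.6%, 15.3 to 47.1), beside 28.5% of the list and 4.59% of the shifted stretches. None of the 5 promoter peaks had it, beside 6.27% of all SOX11-FLAG promoter peaks. Both cores were present in 6 peaks (21.4%) beside 17.2% of the list, and neither in 4 (14.3%) beside 30.2% of the list. At number 20034 of *Slc7a11* the SOX and AP-1 cores were 4 bp apart, the smallest gap among the 6. Within 50 bp of the centre the AP-1 core was present in 4 of the 28 (14.3%), beside 15.8% of the list.

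The ARE core was present in 9 of the 28 SOX11-FLAG peaks (32.1%, 17.9 to 50.7), beside 15.0% of the whole list and 7.81% of the shifted stretches. These 9 belonged to 6 genes: *Nfe2l2*, *Keap1*, *Txnrd1*, 2 peaks of *Gclc*, 2 of *Slc7a11* and 2 of *Hmox1*. In 4 of the 9 an ARE core overlapped an AP-1 core and in 2 it overlapped a SOX core; in the whole list 22.3% of the peaks with the ARE core had the first kind of overlap and 7.89% the second. In the other 3, at *Keap1*, number 17864 of *Gclc* and number 20034 of *Slc7a11*, the ARE core overlapped neither, and at number 483 of *Hmox1* 1 of the 2 ARE cores overlapped neither. The count was 5 within 50 bp of the centre, beside 7.19% of the list, and 14 with the looser form TGANNNNGC, beside 43.3%. The genes were chosen as NRF2 targets, so ARE cores around them are part of what is known of them. A match is a run of letters and was not tested for NRF2 binding. In the RefSeq promoters of GRCm38.p6, which hold 8 of the 10 genes, the ARE core was present in 4 of the 10 promoters of these genes, 1 each of *Nfe2l2*, *Gclm*, *Txnrd1* and *Srxn1*, beside 12.4% of all 32851 promoters.

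**Figure D3:**
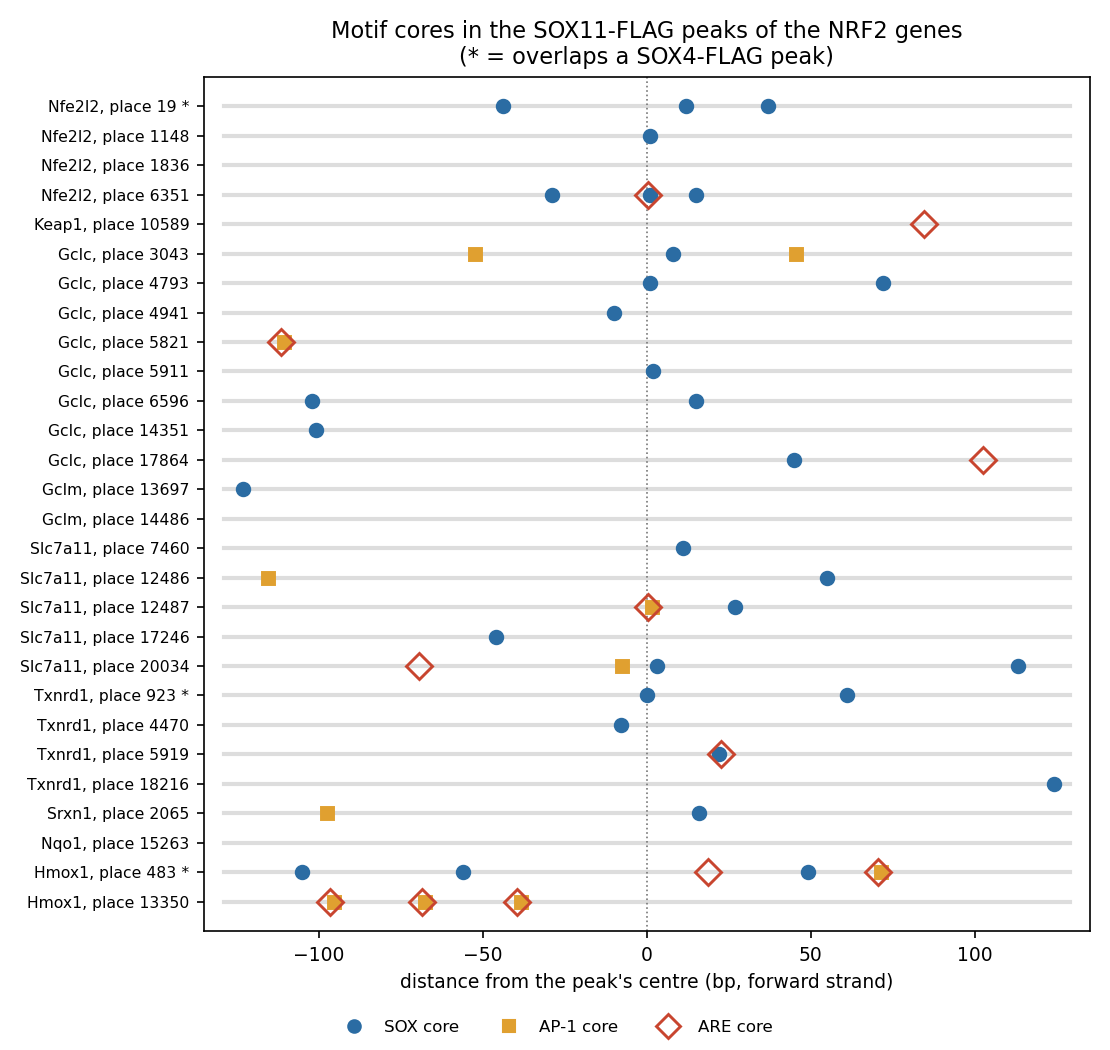
Each line is 1 of the 28 SOX11-FLAG peaks, named by gene and place in the list, and the horizontal axis gives the distance of a core from the centre of the peak in bp. Blue circles are SOX cores, yellow squares AP-1 cores and red diamonds ARE cores; an asterisk marks the 3 peaks that overlap a SOX4-FLAG peak. Diamonds lie on squares in number 13350 of *Hmox1*, 3 times, and once each in number 483 of *Hmox1*, number 5821 of *Gclc* and number 12487 of *Slc7a11*, and on circles in number 6351 of *Nfe2l2* and number 5919 of *Txnrd1*.

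**Figure D4:**
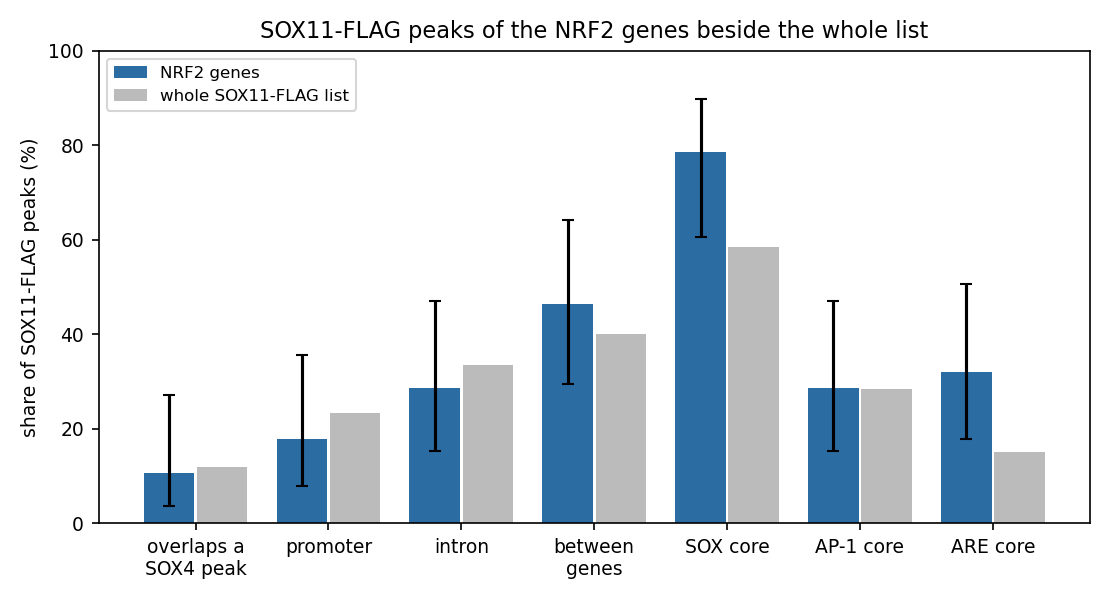
Blue bars give the share of the 28 SOX11-FLAG peaks of the NRF2 genes, in percent, with 95% Wilson intervals, and grey bars the share of all 21270 SOX11-FLAG peaks. The intervals treat the peaks as independent, although many share a gene, and peaks are not replicates. Whether a grey bar falls inside an interval is therefore a description and not a test. For overlap with SOX4-FLAG, location and the AP-1 core the grey bars lie within the intervals. For the SOX core (78.6% and 58.5%) and the ARE core (32.1% and 15.0%) they lie just below them. Among peaks outside promoters, which the bars do not separate, the SOX core shares were 82.6% (62.9 to 93.0) and 64.7%, within the interval.

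Beyond the 10 genes, a list of 45 other genes of the pathway was examined. Of these, 31 (68.9%) had a SOX11-FLAG peak in the window and 8 (17.8%) a SOX4-FLAG peak, beside the same 50.7% and 10.2% of all protein-coding genes. A longer gene has a wider window, and these shares were not adjusted for gene length. The 8 with a SOX4-FLAG peak were among 12 regulators of NRF2 and its relatives (4), 12 genes of glutathione use (3) and 3 of the thioredoxin system (1). None of the 6 genes of NADPH supply, the 4 of haem and iron handling, the 5 of detoxification or the 3 epidermal outputs had one.

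Of the regulators, *Bach1*, a repressor that competes with NRF2 for the ARE, had 3 SOX11-FLAG peaks in its window. The earliest, number 445 at chr16:87700164-87700421, lay in an intron 1.04 kb from a start, overlapped SOX4-FLAG peak number 489 and had 1 SOX core, 2 AP-1 cores and 1 ARE core. *Bach2*, its relative, had 10 in a gene of great length, the earliest at number 4921, and 2 of the 10 overlapped a SOX4-FLAG peak. *Gsk3b* encodes a kinase that marks NRF2 for a second ubiquitin ligase; SOX11-FLAG peak number 1347 lay in its promoter, 603 bp upstream of the start, and overlapped SOX4-FLAG peak number 768. *Nfe2*, the blood-cell relative of *Nfe2l2*, had 1 peak at its own start (number 10818) and 1 with both factors (number 1223) whose closest start was that of *Hnrnpa1*, an RNA-binding protein gene. The repressor *Bach1* thus had the earliest-listed site with both factors among these regulators. *Maff*, a small MAF partner, had 3 SOX11-FLAG peaks, and *Btrc*, the receptor of that second ligase, had 2, none with a SOX4-FLAG peak.

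Of the glutathione genes, *Slc3a2*, the heavy chain that carries xCT to the membrane, had 2 SOX11-FLAG peaks. Number 480, at chr19:8776963-8777220, lay between genes beyond the 3′ end of *Slc3a2*, 20.77 kb from its 5′ end and 11.3 kb from the closest start. It overlapped SOX4-FLAG peak number 830. *Slc3a2* therefore had a site with both factors in its window, downstream of the gene, while its partner *Slc7a11* had SOX11-FLAG peaks alone. *Gsr*, glutathione reductase, had 3 intronic SOX11-FLAG peaks and 1 SOX4-FLAG peak, number 1884 at chr8:34764075-34764414, in an exon 182 bp from a start, and that SOX4-FLAG peak overlapped no SOX11-FLAG peak. *Gsta4*, a glutathione transferase for lipid aldehydes, had 2, of which number 1243 overlapped SOX4-FLAG peak number 1240 and had its closest start at *Gsta1*; the genes are neighbours in a family of similar sequences, so reads there can be hard to place. *Gstp1* had 2, number 8510 at its promoter and number 778 closest to *Gstp2*. Of the thioredoxin genes, *Prdx6*, a peroxiredoxin, had 1 SOX11-FLAG peak, number 947, in an exon of 1 of its transcripts and 324 bp from a start. It overlapped SOX4-FLAG peak number 1145 and had none of the 3 cores, while the wider SOX4-FLAG peak held 1 SOX core.

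Of the other groups, *Me1*, an NADPH-making malic enzyme, had 3 SOX11-FLAG peaks, of which 2 were closest to *A330041J22Rik* and 1 to *Pgm3*. *Idh1*, another source of NADPH, had 2, of which number 2805 was centred 7 bp from a start of the gene and number 13059 was in the promoter of *Pikfyve*. *Ephx1*, an epoxide hydrolase, had 2, the earlier being number 917 in an intron, and the later was closest to *Tmem63a*. Among the other pathway genes without a SOX4-FLAG peak in the window, *Maff* and *Me1* had the most SOX11-FLAG peaks there, 3 each. *Btrc*, *Gstp1*, *Idh1*, *Ephx1*, *Prdx1* and *G6pdx* followed with 2 each, and of these the first 4 were described because their earliest peaks stood earlier in the list.

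**Figure D5:**
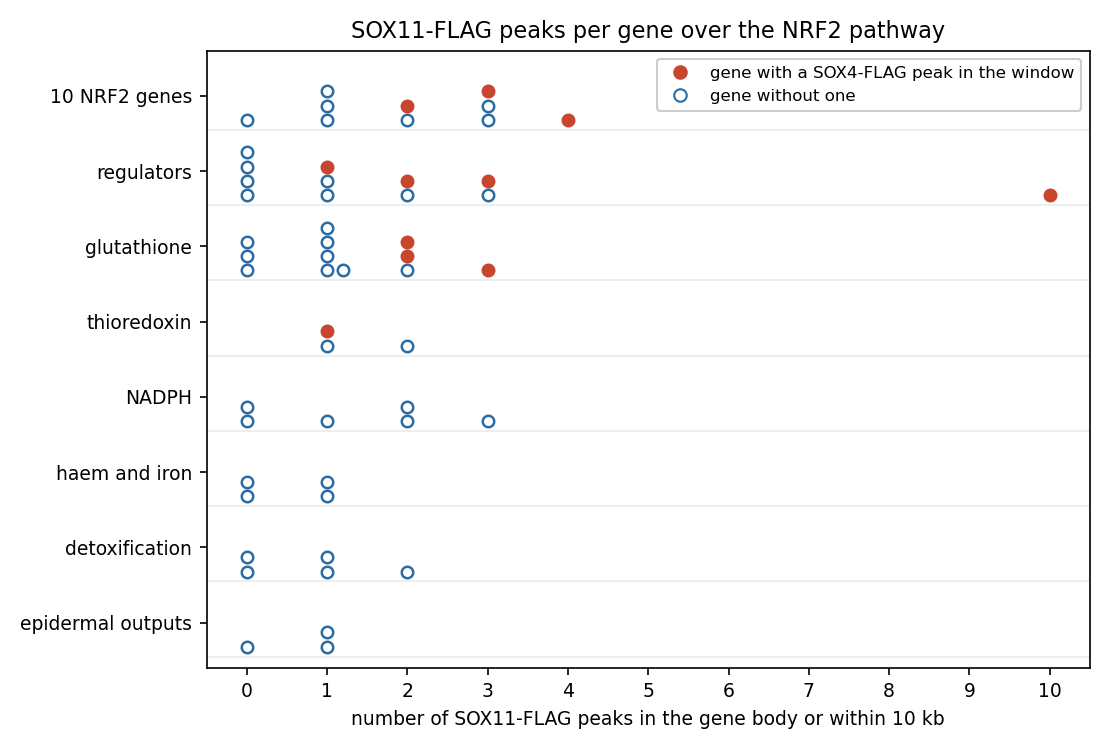
Each circle is 1 gene, placed by its number of SOX11-FLAG peaks in the gene body or within 10 kb, for the 10 NRF2 genes and the 45 other genes of the pathway in 7 groups; circles at 1 number are stacked. Red circles are genes with a SOX4-FLAG peak in the window. The circle at 10 is *Bach2*, and the lower 4 rows hold no red circle.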

How the data were processed

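ChIP-seq peaks of SOX11-FLAG and SOX4-FLAG were analysed; the control was not used. Per the labels and the methods of the study, the authors aligned the reads to mm9 (Bowtie2), took out duplicates (Picard), ran HOMER for peak calling and dropped blacklisted intervals (bedtools); versions and thresholds are not given in the sources used here. The deposited values are the chromosome, start and end of each peak, with no count, signal or score. Starts were read as counted from 0 and are printed from 1.

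Peaks were placed by their centre with the GENCODE M1 annotation of mm9, restricted to protein-coding genes, in Python 3.11.15 with pysam 0.24.0, numpy 2.4.6 and scipy 1.17.1, and samtools 1.23.1 for the genome index. Intron and exon numbers are those of the transcript with the longest coding sequence unless another is named. Promoters came first, then exons, introns and the space between genes. Overlap needed at least 1 bp. Figures were drawn with matplotlib 3.10.9. Overlap, window, closest start, promoter rule and motif search were tested on simulated data.

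The genes and lists were chosen with earlier results of these data known, and no test was made. All 10 genes were named, with their earliest-listed peak except for *Sqstm1*, which had no assigned peak. Of the 45 others, those with a SOX4-FLAG peak in the window and 6 without one were named. These 6 were taken by the number of SOX11-FLAG peaks in the window, with ties broken by the earliest place in the list. Sequences were to be those with both factors or with the ARE core, at most 8, earliest first; the added *Hmox1* peak was chosen after its values were seen.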

Additional observations from a re-analysis of the deposited data

How the results depend on the processing

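For 11 counts, 34 alternatives were computed, and 28 of them gave a count within 1.5 times the reported one. With windows of 50 kb the number of SOX11-FLAG peaks at the 10 genes was 45 instead of 28, since a wider window takes in more peaks. With the same windows 16 instead of 8 of the 45 other pathway genes had a SOX4-FLAG peak, while the share of all protein-coding genes with one was 21.7% instead of 10.2%. Promoter peaks numbered 8 instead of 5 with 1 kb to each side of a start. Within 50 bp of the centre the AP-1 core was found in 4 instead of 8 peaks and the ARE core in 5 instead of 9, and the looser ARE core in 14. The overlap with SOX4-FLAG stayed at 3 peaks when 50% of the SOX4-FLAG peak had to be covered and when centres had to lie within 100 bp. Another of the 28 alternatives, keeping only the earlier 50% of the SOX11-FLAG list, could not change this number and says nothing of its stability, since the 3 peaks are the earliest at these genes. No paired analysis was possible because the authors merged the replicates of each factor into 1 list, and no replicate could be left out. Depth is unknown, so a gene without a listed peak, such as *Sqstm1*, is not shown to be unbound.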

Other observations

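Some peaks of the other pathway genes lay outside the windows and were noticed after their values were seen. *Nfe2l3*, a relative of *Nfe2l2* without a peak in its window, had the closest start to 3 SOX11-FLAG peaks, of which 2 overlapped SOX4-FLAG peaks: number 450, 48.5 kb upstream, with SOX4-FLAG peak number 380, and number 696, 52.8 kb upstream, with number 1074. Each of these 2 had 2 SOX cores. Upstream of *Gsta4*, SOX11-FLAG peaks number 8188 and number 7253 lay 15.0 and 15.8 kb from the start and overlapped SOX4-FLAG peaks number 2104 and number 2284. *Gsk3b* had a second site with both factors 70.7 kb upstream, SOX11-FLAG number 1659 and SOX4-FLAG number 632, and *Prdx6* one 17.0 kb upstream, SOX11-FLAG number 6154 and SOX4-FLAG number 1877. At *Bach1*, SOX11-FLAG peak number 1899, 33.4 kb upstream, had 1 SOX core, 2 AP-1 cores and 1 ARE core and no SOX4-FLAG peak.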
